A study of Mus musculus with 3 samples.

Results

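The CC chemokines and their receptors were described in the suprarenal aorta of apoE null C57BL/6 mice. The entries were chosen among rows whose symbol was Ccl or Ccr followed by digits and at most 1 letter, in any of the 3 deposited lists. The CC genes described were 11 of the 1238 genes listed: 8 ligands (*Ccl2*, *Ccl3*, *Ccl4*, *Ccl5*, *Ccl6*, *Ccl7*, *Ccl8*, and *Ccl9*) and 3 receptors (*Ccr1*, *Ccr2*, and *Ccr7*). Most detail is given for *Ccl2*, *Ccl6*, *Ccr1*, and *Ccr2*. Of 24 mouse CC ligand symbols, 8 were listed, and none of 9 atypical chemokine receptor symbols was.

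All mice were male, 12 weeks old at surgery, and apoE null, a genotype that raises plasma lipids, so that the controls carried it too. The AngII AAA library came from mice infused with angiotensin II (AngII) that formed a dissecting abdominal aortic aneurysm (AAA), with tissue taken within 24 hours of its diagnosis. The AngII No AAA library came from mice given the same infusion without such a lesion by day 10, and the Saline library from saline-infused mice. Each cohort was 1 library of RNA pooled from several animals, so that no spread between animals could be measured and no test between cohorts was made. Time after pump implantation differs between the AngII AAA cohort and the others and cannot be told apart from the lesion.

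CC chemokines are small secreted proteins with a pair of adjacent cysteines. They bind G protein-coupled receptors on leukocytes and guide these cells into tissue. *Ccl2* and *Ccl7* are ligands of CCR2, the receptor that brings classical monocytes out of the bone marrow and into inflamed vessels, and *Ccl8* belongs to the same group of monocyte chemoattractants. *Ccl6* and *Ccl9* are rodent ligands of CCR1, which is carried by monocytes, macrophages, and neutrophils. *Ccl3*, *Ccl4*, and *Ccl5* encode the macrophage inflammatory proteins and RANTES, and CCR7 guides dendritic cells and lymphocytes to lymph nodes.

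The values were FPKM, the fragments per kilobase of transcript scaled to library size, which allows levels of different genes to be set side by side. A list held only the 2 libraries of its comparison. Levels across all 3 libraries are therefore given on the scale of the AngII AAA vs. Saline list, reached by multiplying the values of the AngII AAA vs. AngII No AAA list by 1.03 and those of the AngII No AAA vs. Saline list by 0.915, and every ratio is from the list that holds the comparison where there is one. An entry was listed only where the authors' unadjusted p-value was under 0.05, so a gene that is not listed has no value here. Within a list, the ratios fell on ratios of whole read numbers once the relative library size was divided out, and the smallest read numbers behind 9 of the 11 genes could be recovered. The 95% intervals below come from these reads by the exact binomial method. They cover counting error only, not the spread between animals, and they are too wide where the true read numbers are a multiple of the smallest.

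The 8 ligand genes lay in 2 groups on chromosome 11, by the coordinates of the lists (mm9). *Ccl2*, *Ccl7*, and *Ccl8* spanned 81224 bases from chr11:81849078 to 81930301, and *Ccl5*, *Ccl9*, *Ccl6*, *Ccl3*, and *Ccl4* spanned 138906 bases from chr11:83339280 to 83478185. *Ccr1* and *Ccr2* spanned 146922 bases of chromosome 9, from 123876958 to 124023879, and *Ccr7* stood apart at chr11:99005512-99016391. No other listed entry lay inside any of these groups. In the RefSeq order, *Ccl11* and *Ccl12* stand between *Ccl7* and *Ccl8*, and *Ccr3* between *Ccr1* and *Ccr2*, and none of these was listed. The listed locus of *Ccl6* was 41634 bases long, against 5202 bases for the RefSeq gene.

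Promoter sequence was matched by symbol in RefSeq (GRCm38.p6) for 6 of the 11 genes. The 250 bases before the start are printed for *Ccl6* and *Ccl9*, neighbours and the highest of the listed ligands in the AngII AAA library. They are also printed for *Ccl8*, the listed ligand nearest to its aneurysm level without a lesion. The others are *Ccr1* and *Ccr2*, the highest of the receptors described here in the AngII AAA library. Capitals mark matches on either strand to AP-1 (TGANTCA), PU.1 (AGGAAG), or the TATA box (TATAAA). The positions are chr11:83593088-83593337 (- strand) for *Ccl6*, chr11:83578637-83578886 (- strand) for *Ccl9*, chr11:82114935-82115184 (+ strand) for *Ccl8*, chr9:123968693-123968942 (- strand) for *Ccr1*, and chr9:124101933-124102182 (+ strand) for *Ccr2*.
Ccl6: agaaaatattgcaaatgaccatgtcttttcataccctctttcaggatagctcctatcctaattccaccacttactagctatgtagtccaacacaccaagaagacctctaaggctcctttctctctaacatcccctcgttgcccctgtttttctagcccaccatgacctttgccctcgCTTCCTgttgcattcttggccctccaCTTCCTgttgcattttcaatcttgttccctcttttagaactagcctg
Ccl9: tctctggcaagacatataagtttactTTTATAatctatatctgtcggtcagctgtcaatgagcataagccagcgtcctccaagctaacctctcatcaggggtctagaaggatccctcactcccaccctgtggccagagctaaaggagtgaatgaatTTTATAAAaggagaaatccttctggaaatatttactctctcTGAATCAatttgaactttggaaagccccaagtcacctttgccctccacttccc
Ccl8: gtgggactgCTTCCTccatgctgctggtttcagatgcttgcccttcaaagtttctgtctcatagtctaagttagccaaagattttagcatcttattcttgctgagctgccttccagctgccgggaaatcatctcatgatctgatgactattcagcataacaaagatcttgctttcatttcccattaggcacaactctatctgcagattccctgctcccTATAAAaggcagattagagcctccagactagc
Ccr1: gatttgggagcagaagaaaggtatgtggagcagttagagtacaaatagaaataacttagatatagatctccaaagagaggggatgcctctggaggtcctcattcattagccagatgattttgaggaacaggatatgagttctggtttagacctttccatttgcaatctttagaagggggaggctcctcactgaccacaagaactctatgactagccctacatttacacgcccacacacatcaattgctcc
Ccr2: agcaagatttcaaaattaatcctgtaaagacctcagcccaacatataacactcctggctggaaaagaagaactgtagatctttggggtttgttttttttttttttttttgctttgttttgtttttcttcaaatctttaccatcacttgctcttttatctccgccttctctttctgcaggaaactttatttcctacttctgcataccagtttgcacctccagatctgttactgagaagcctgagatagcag

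The letters of PU.1, a myeloid transcription factor, were present in 2 of the 6 promoters, *Ccl6* and *Ccl8*, against 29.5% of 32851 promoters of the same length. *Ccl6* held them at 73 and 47 bases before its start, both on the opposite strand. The AP-1 letters were present in 1 of the 6 (6.75% of all promoters), that of *Ccl9*, at 53 bases before its start. The TATA box letters were present in *Ccl8*, at 32 bases before the start, and in *Ccl9*, which had 3 matches, those at 94 and 92 bases before the start on opposite strands and overlapping, so that 2 of the 6 held them against 12.4% of all promoters. *Ccr1* and *Ccr2* held none of these letters in this window. These matches are a description of sequence and not of binding.

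In the AngII AAA library, each of the 11 CC genes was higher than in the libraries it was listed against. Between AngII AAA and AngII No AAA, 7 CC genes were listed (5 ligands and 2 receptors), all higher with the lesion, where 79.0% of all 600 entries were higher. All 7 were at least 4-fold higher, against 31.5% of entries above 0 in both libraries, and the median log2 ratio was 2.65 for the CC genes, 1.63 over all entries, and 1.81 over the entries that were higher. Between AngII AAA and Saline, all 11 were listed and higher (84.6% of all 715 entries), and all 10 with a ratio were at least 4-fold higher (63.7% of entries), with a median of 4.12 against 2.26 over all entries. Between AngII No AAA and Saline, *Ccl6*, *Ccl8*, *Ccl9*, and *Ccr1* were listed, all higher with AngII (63.5% of all 564 entries) and all at least 4-fold higher (9.89% of entries), with a median of 2.65 against 1.16. These counts and medians hold only the CC genes that passed the authors' threshold. *Ccl7*, *Ccr2*, *Ccl5*, and *Ccl2* did not pass it there, and across lists were 3.18, 2.51, 1.57, and 0.784 times their Saline levels. *Ccl8* was not listed between AngII AAA and AngII No AAA, and across lists was 1.72-fold higher. In an alternative chosen after seeing the data, the lower limit of the counting interval reached 4-fold for 4 of the 7 genes between AngII AAA and AngII No AAA and, between AngII No AAA and Saline, for *Ccl6* alone of the 4. No share of all entries past that limit is given, so these counts have no background to be read against. The 3 comparisons share their libraries and are not independent of each other. RNA of whole aortic tissue was measured, so that more cells of a type and more RNA per cell cannot be told apart.

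**Figure D1:**
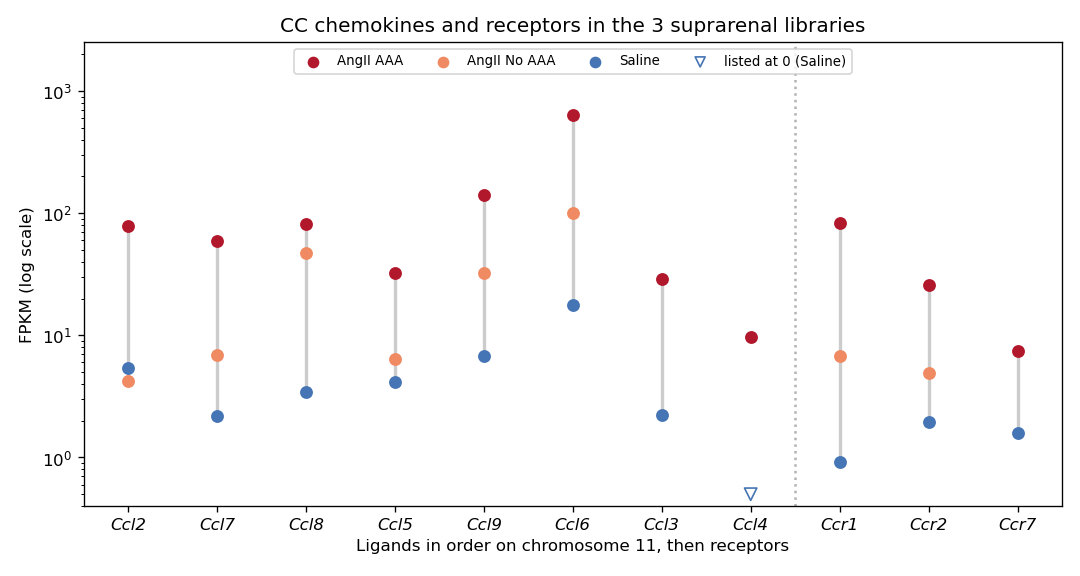
Levels of the 11 CC genes in FPKM (log axis) in each library, on the scale of the AngII AAA vs. Saline list, with 1 point per pooled library; a missing orange point means that no list gives the AngII No AAA value. The AngII AAA point is the highest for every gene, and *Ccl2* is the only gene of those with 3 points whose AngII No AAA point lies below Saline.

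**Figure D2:**
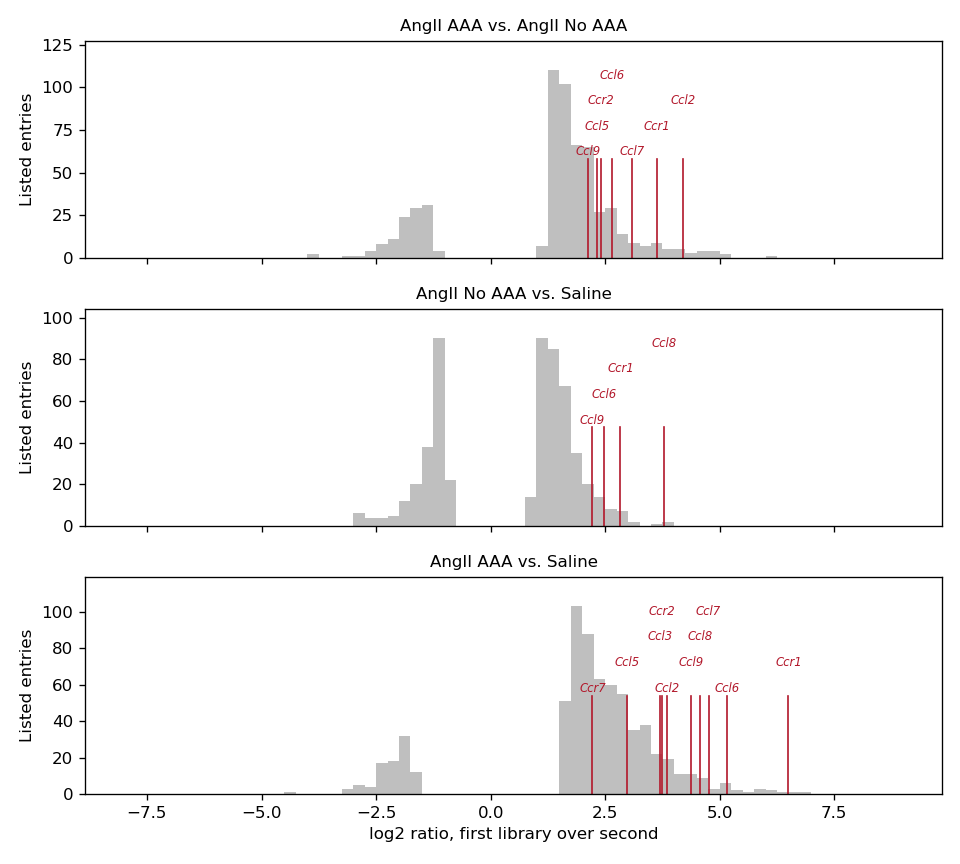
Number of listed entries (grey bars) by log2 ratio in each of the 3 lists, with red lines at the CC genes. The gap around 0 is made by the threshold of the lists, and every CC gene lies on the positive side.

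Among the ligands of CCR2, *Ccl2* was at 78.4 FPKM in AngII AAA, 4.25 FPKM in AngII No AAA, and 5.42 FPKM in Saline. It was thus high with the lesion alone, and the other libraries lay close together. The log2 ratio of AngII AAA to AngII No AAA was 4.21 (95% counting interval, 3.20 to 5.44), the largest of the CC genes in that list, and that to Saline was 3.85 (2.95 to 4.94). *Ccl2* was not listed for AngII No AAA vs. Saline. Across lists the log2 ratio was -0.35, and its interval of -1.90 to 1.14 includes no difference, since the smallest read numbers were 217, 8, and 10 in AngII AAA, AngII No AAA, and Saline. That interval holds both a 2-fold higher and a 2-fold lower level, so that a difference of this size was not detectable at this depth.

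*Ccl7*, the neighbour of *Ccl2*, was at 59.0, 6.96, and 2.19 FPKM in AngII AAA, AngII No AAA, and Saline. The log2 ratio of AngII AAA to AngII No AAA was 3.08 (2.27 to 4.02) and that to Saline 4.75 (3.37 to 6.65). The step from Saline to AngII No AAA was 1.67 on the log2 scale, with an interval of -0.02 to 3.74 that just includes no difference, from 13 and 4 reads.

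*Ccl8* differed in pattern from its neighbours. Its level was 80.9 FPKM in AngII AAA, 47.1 FPKM in AngII No AAA, and 3.42 FPKM in Saline, so that both AngII libraries were high. The log2 ratio of AngII No AAA to Saline was 3.78 (1.80 to 6.90), the largest of the CC genes in that list, although it rests on 2 reads in the Saline library as the smallest number. The list of AngII AAA vs. AngII No AAA did not hold *Ccl8*, and across lists its log2 ratio there was 0.78 (0.14 to 1.46). Of the log2 distance between Saline and AngII AAA, 82.9% was present in the AngII No AAA library for *Ccl8*, 35.1% for *Ccl7*, and -9.12% for *Ccl2*. In FPKM, *Ccl2* was 1.58 times *Ccl8* in the Saline library, 0.0902 times in the AngII No AAA library, and 0.969 times in the AngII AAA library.

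*Ccl6*, a ligand of CCR1, had the highest level of the listed CC genes in every library. It was at 632 FPKM in AngII AAA, where it ranked 12th of 929 entries with a value, at 101 FPKM in AngII No AAA, and at 17.6 FPKM in Saline. The 3 libraries were well apart, with 3119, 338, and 58 reads as the smallest numbers. The log2 ratio of AngII AAA was 2.65 (2.49 to 2.82) to AngII No AAA and 5.16 (4.79 to 5.56) to Saline, and that of AngII No AAA to Saline was 2.47 (2.06 to 2.90). The steps below and above the AngII No AAA level were of similar size in log2, with overlapping intervals.

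*Ccl9*, the neighbour of *Ccl6*, had the second highest level of the listed CC genes in the AngII AAA library. It was at 142, 32.6, and 6.82 FPKM in AngII AAA, AngII No AAA, and Saline. Its steps were also alike in size: the log2 ratio of AngII AAA to AngII No AAA was 2.12 (1.92 to 2.33), and that of AngII No AAA to Saline 2.21 (1.75 to 2.69). The share of the log2 distance to AngII AAA that was present without a lesion was 51.5% for *Ccl9* and 48.7% for *Ccl6*.

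Among the inflammatory ligands *Ccl3*, *Ccl4*, and *Ccl5*, *Ccl5* was at 32.4, 6.45, and 4.11 FPKM in AngII AAA, AngII No AAA, and Saline. Its log2 ratio of AngII AAA to AngII No AAA was 2.33 (1.26 to 3.60), and the step from Saline to AngII No AAA was 0.65 (-1.15 to 2.61), which includes no difference. *Ccl3* and *Ccl4* were listed for AngII AAA vs. Saline alone. *Ccl3* was at 28.7 and 2.21 FPKM there, with a log2 ratio of 3.70 (1.75 to 6.80). *Ccl4* was at 9.71 FPKM in AngII AAA and listed at 0 in the Saline library, so that no ratio is given.

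**Figure D3:**
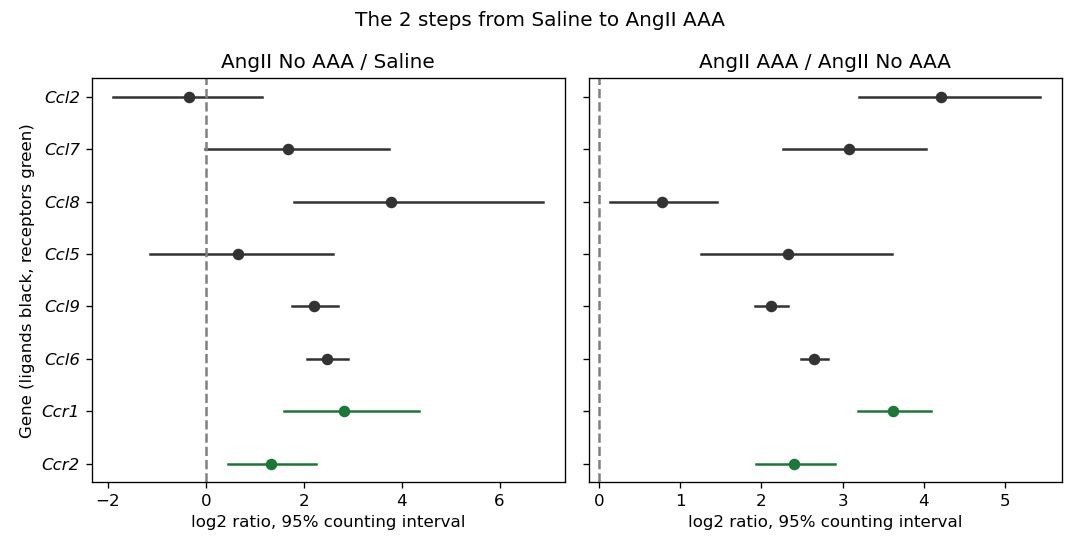
Log2 ratio of AngII No AAA to Saline (left) and of AngII AAA to AngII No AAA (right) for the 8 CC genes with values in all 3 libraries, ligands in black and receptors in green. Bars are 95% counting intervals of pooled libraries and do not hold the spread between animals; on the left, 3 of the 8 intervals include 0, and on the right none does.

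*Ccr1*, the receptor of *Ccl6* and *Ccl9*, had the largest ratio of AngII AAA to Saline among the 10 CC genes above 0 in both libraries. It was at 83.7 FPKM in AngII AAA, 6.80 FPKM in AngII No AAA, and 0.926 FPKM in Saline. Only *Ccl4* of the listed CC genes was lower in Saline. The order of the libraries was clear of counting error at both steps. The log2 ratio was 6.50 (5.37 to 7.95) for AngII AAA vs. Saline, a 90.4-fold difference with a lower limit of 41.4-fold, on 814 and 6 reads. The log2 ratio of AngII AAA to AngII No AAA was 3.62 (3.19 to 4.09), and that of AngII No AAA to Saline 2.83 (1.60 to 4.35).

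*Ccr2*, the receptor of *Ccl2* and *Ccl7*, was at 25.9, 4.89, and 1.95 FPKM in AngII AAA, AngII No AAA, and Saline. With the lesion, the log2 ratio was 2.40 (1.93 to 2.91) to AngII No AAA and 3.73 (3.01 to 4.56) to Saline. *Ccr2* was not listed for AngII No AAA vs. Saline, yet across lists its log2 ratio was 1.33 (0.46 to 2.26), which leaves out no difference as far as counting goes. *Ccl2* and its receptor thus had different values at that step, -0.35 and 1.33, with intervals that overlap.

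*Ccr7* was at 7.41 FPKM in AngII AAA and 1.59 FPKM in Saline, with a log2 ratio of 2.22. *Ccr7* had the smallest ratio of the CC genes in the AngII AAA vs. Saline list, and its reads could not be recovered. Of all 61-base words of the transcripts, 1.76% for *Ccr2* and 1.02% for *Ccl9* also occur in another gene, and none for the other 9 genes.

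The order AngII AAA, AngII No AAA, Saline held for 7 of the 8 CC genes with a value in each library, and for 77.2% of all 544 entries above 0 in each. *Ccl2* had the order AngII AAA, Saline, AngII No AAA, as did 7.17% of all entries. Both steps were clear of counting error for 5 genes, *Ccl6*, *Ccl8*, *Ccl9*, *Ccr1*, and *Ccr2*. For *Ccl2*, *Ccl5*, and *Ccl7*, the order of the AngII No AAA and Saline libraries was not detectable at this depth.

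The make-up of the CC genes also differed between libraries. The 6 ligands with 3 values summed to 1025 FPKM in AngII AAA, 198 FPKM in AngII No AAA, and 39.6 FPKM in Saline. *Ccl6* made up 61.7%, 50.9%, and 44.5% of these sums, respectively. *Ccl8* made up 23.8% in the AngII No AAA library, against 7.90% in AngII AAA and 8.63% in Saline, while *Ccl2* made up 2.14% there, against 7.65% and 13.7%. *Ccr1* and *Ccr2* summed to 110 FPKM in AngII AAA, 11.7 FPKM in AngII No AAA, and 2.87 FPKM in Saline. *Ccr1* made up 76.4% of this sum in the AngII AAA library, 58.2% in AngII No AAA, and 32.2% in Saline, so that it was the higher of the pair in both AngII libraries and the lower in Saline. The ratio of *Ccr1* to *Ccr2* in FPKM was 3.23, 1.39, and 0.475 in the same order of libraries. No counting interval was made for these shares and ratios. The reads and FPKM of *Ccr2* did not match those of the other genes, as given under Other observations. Its level beside that of *Ccr1* is therefore less certain than its ratios between libraries. The Saline values rest on few reads, with smallest numbers of 2 for *Ccl8*, 6 for *Ccr1*, and 16 for *Ccr2*.

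**Figure D4:**
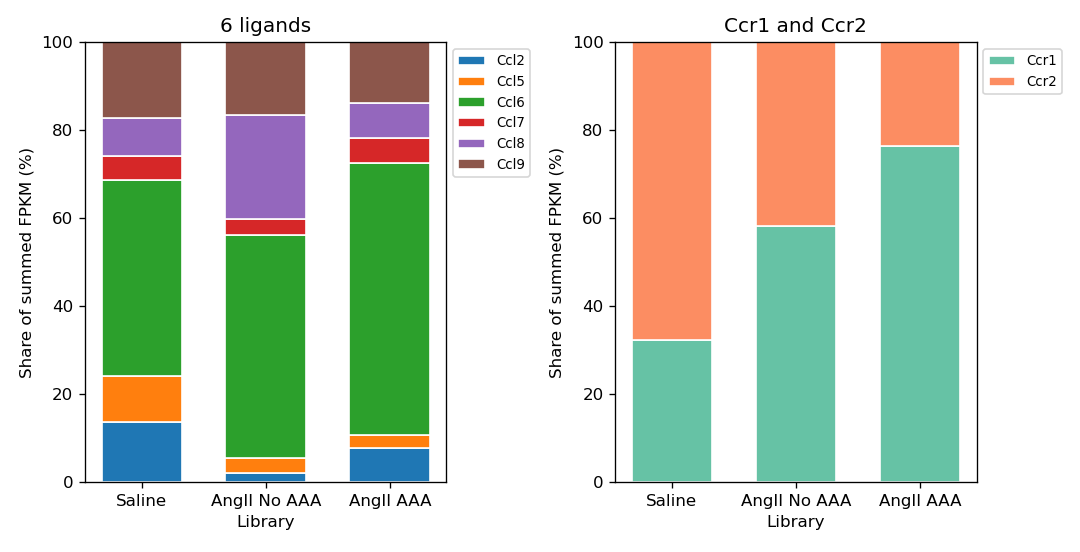
Share (%) of each gene in the summed FPKM of the 6 ligands (left) and of *Ccr1* and *Ccr2* (right). *Ccl8* takes its widest share in the AngII No AAA library, and the *Ccr1* share is 32.2% in Saline and 76.4% in AngII AAA.

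Ligand and receptor were also compared within a library. *Ccl2* was 3.03 times *Ccr2* in the AngII AAA library, 0.869 times in the AngII No AAA library, and 2.78 times in the Saline library. *Ccl6* was 7.55, 14.8, and 19.1 times *Ccr1* in the same order, so that this ligand exceeded its receptor in each library and by the least with the lesion. *Ccl7* was 2.28, 1.42, and 1.12 times *Ccr2*, with a value above it in each library. *Ccl5*, which also binds CCR1, was 0.386, 0.948, and 4.44 times *Ccr1*, with a value below it in both AngII libraries. No counting interval was made for these ratios. Those to *Ccr2* carry the mismatch of its reads and FPKM given under Other observations, so that their size is uncertain. In AngII No AAA, the smallest read numbers of *Ccl2* and *Ccl5* were 8 each, and *Ccl7* had 4 in Saline. Ratios near 1 therefore do not settle which gene was higher.

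The genes nearest to each of the 4 most detailed members were taken from 503 single-gene entries, by the distance of their log2 ratios of both AngII libraries to Saline. These distances are a description over 2 ratios that share the Saline library. For *Ccl2* the nearest were *Cxcr2*, the neutrophil receptor for CXC chemokines (distance 0.22), *Pram1*, a myeloid adaptor (0.40), and *S100a9*, a calcium-binding protein abundant in neutrophils (0.48). *Cxcr2* was at 49.2, 3.23, and 3.59 FPKM in AngII AAA, AngII No AAA, and Saline, so that, like *Ccl2*, it was high with the lesion alone. For *Ccl6* the nearest were *Wfdc17* (0.13), *Lilrb4a*, an inhibitory leukocyte receptor (0.26), and *Tlr13*, a sensor of bacterial RNA (0.39). For *Ccr1* they were *Hmox1*, which breaks down heme (0.38), *Spp1*, which encodes osteopontin (1.01), and *Clec4d*, a myeloid lectin receptor (1.25). *Hmox1* was at 1050 FPKM in AngII AAA, 62.7 FPKM in AngII No AAA, and 11.1 FPKM in Saline. For *Ccr2* they were *Cd33*, a myeloid surface receptor (0.05), the histone gene *Hist1h4a* (0.10), and *Lcp1*, a leukocyte actin-bundling protein (0.11).

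Some genes that act downstream of chemokine receptors were listed too. Of 32 such genes, 17 were listed between AngII AAA and AngII No AAA, 15 between AngII AAA and Saline, and 3 between AngII No AAA and Saline, all of them higher, with median log2 ratios of 1.77, 2.61, and 1.53. Over all entries listed higher in these comparisons, which were 79.0%, 84.6%, and 63.5% of the lists, the medians were 1.81, 2.46, and 1.44. *Arrb2*, the arrestin that uncouples activated receptors, was at 67.8, 19.9, and 13.6 FPKM in AngII AAA, AngII No AAA, and Saline. *Rac2*, the small GTPase of leukocyte migration, was at 63.3, 13.2, and 6.33 FPKM.

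Leukocyte markers were higher beside the CC genes, in lists where 79.0%, 84.6%, and 63.5% of all entries were higher, with medians over those entries of 1.81, 2.46, and 1.44. Of 26 monocyte and macrophage markers, 18 were higher in AngII AAA than in AngII No AAA (median log2 ratio 2.30), 19 were higher in AngII AAA than in Saline (3.43), and 12 higher in AngII No AAA than in Saline (1.38), and none was lower. Their summed level was 2274 FPKM in AngII AAA and 181 FPKM in Saline, led by *Lyz2*, which encodes lysozyme, and *Cd68*, a lysosomal protein of macrophages. Of 22 neutrophil markers, 11, 12, and 2 were listed as higher in the same comparisons and none as lower, with medians of 4.27, 4.54, and 2.85. The 2 listed between AngII No AAA and Saline were *Hp* and *Lcn2*. Across lists, *S100a8* (-0.21), *S100a9* (-0.78), and *Cxcr2* (-0.15) were lower in AngII No AAA than in Saline. *Mmp9* (0.28), *Csf3r* (0.48), *Trem1* (1.06), *Mmp8* (1.56), and *Clec4d* (1.78) were higher there. The neutrophil sum was 2816 FPKM in AngII AAA and 184 FPKM in Saline, led by *Hp* and *S100a8*, and *Stfa2l1* was listed at 0 in both the AngII No AAA and the Saline library. The granulocyte markers *Ly6g*, *Mpo*, and *Elane* were not listed. The 4 detailed members were above the median of the macrophage markers in the AngII AAA vs. AngII No AAA list, by a median of 0.83 on the log2 scale, and below that of the neutrophil markers, by -1.14. They lay from 0.10 (*Ccr2*) to 1.90 (*Ccl2*) above the macrophage median. The other CC genes of that list lay at 0.78 (*Ccl7*), 0.02 (*Ccl5*), and -0.18 (*Ccl9*) from it. For AngII AAA vs. Saline, *Ccr1*, *Ccl6*, *Ccl7*, *Ccl8*, and *Ccl9* each had a larger ratio than all 19 macrophage markers, and *Ccl2*, *Ccl3*, and *Ccr2* a larger one than 14 of the 19. *Ccl5* had a larger ratio than 5 of the 19 and *Ccr7* than 1, and they lay at -0.46 and -1.21 from the macrophage median on the log2 scale. The part of cell number in the CC values was not tested.

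**Figure D5:**
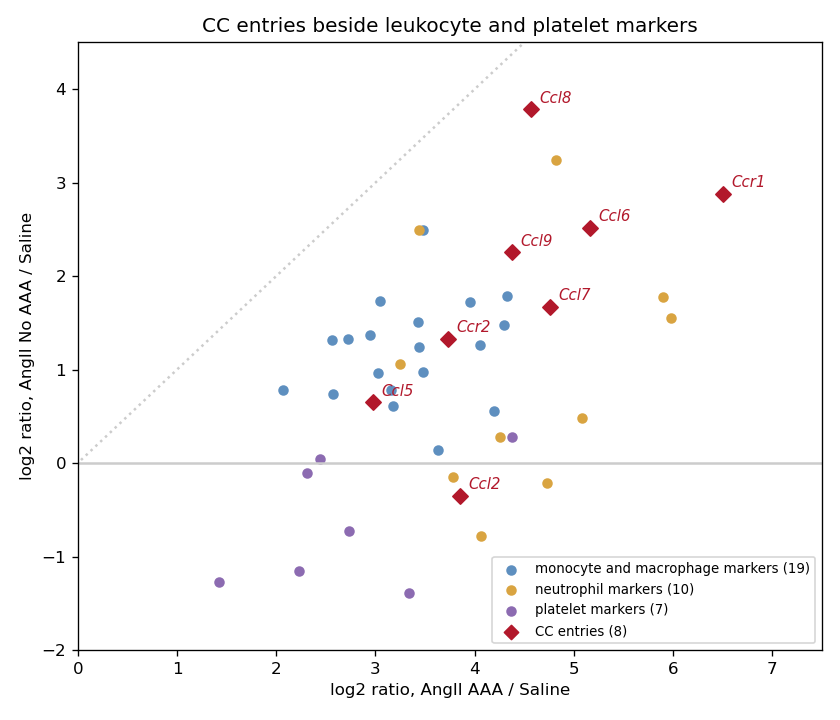
Log2 ratio of AngII AAA to Saline (horizontal) against that of AngII No AAA to Saline (vertical), on 1 scale, for 8 CC genes (red diamonds), 19 monocyte and macrophage markers, 10 neutrophil markers, and 7 platelet markers with values above 0 in all 3 libraries. All points lie below the dotted line of equal ratios; *Ccl2* lies below 0 on the vertical axis, where 5 platelet and 3 neutrophil markers also lie and no macrophage marker does.

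Markers of other cells and tissues also differed with the lesion, in lists where 79.0% of all entries were higher in AngII AAA than in AngII No AAA (median over all entries 1.63) and 84.6% higher than in Saline (2.26). In the list of AngII No AAA vs. Saline, 63.5% of all entries were higher in AngII No AAA (1.16). Platelet markers were higher in AngII AAA (8 of 12 listed against AngII No AAA and 6 against Saline, medians 3.04 and 2.59), led by *Pf4* and *Ppbp*, and *Ppbp* and *Tubb1* were listed lower in AngII No AAA than in Saline. Adrenal cortex markers, led by *Hsd3b1* and *Cyp21a1*, were higher in AngII AAA (9 of 12 against AngII No AAA and 8 against Saline, medians 4.42 and 4.59). *Hsd3b1* was at 134, 2.06, and 1.05 FPKM in AngII AAA, AngII No AAA, and Saline. Smooth muscle markers, which define the labelled aortic tissue, were present and lower in AngII AAA (7 of 11 against AngII No AAA and 2 against Saline), with *Acta2* at 314 FPKM in AngII AAA and 956 FPKM in AngII No AAA and *Tagln* at 280 and 934 FPKM. Skeletal muscle markers, led by *Acta1* and *Mb*, were lower than in Saline for 11 of 12 in AngII No AAA and 4 in AngII AAA. Of 18 T cell, B cell, and NK cell markers, 3 were higher in AngII AAA than in AngII No AAA and 2 higher than in Saline, led by *Cd79b* and *Cd79a*. The part of these cells and tissues in the CC values was not tested.

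The remaining lists held few entries. Of all entries in the comparisons, 79.0%, 84.6%, and 63.5% were listed higher, in the order given for the macrophage markers. Of 12 dendritic cell markers, *Cd74* and *H2-Ab1* were higher in AngII No AAA than in Saline, and of 13 eosinophil, mast cell, and basophil markers, *Siglecf* alone was listed, higher in AngII AAA than in either other library. Of 9 lymph node and high endothelium markers, 4, 5, and 4 were listed in the order of comparisons given for the macrophage markers, all higher, led by *Pdpn* and *Cxcl13*. Their median log2 ratios were 1.78, 2.69, and 1.63, near the medians of 1.81, 2.46, and 1.44 over all entries listed higher. Of 10 endothelial markers, *Emcn* was higher in AngII AAA than in Saline. Of 10 fibroblast markers, 5 were higher in AngII No AAA than in Saline, among them *Col1a2*, *Col3a1* was higher in AngII AAA than in Saline, and *Pi16* was lower in AngII AAA than in AngII No AAA.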

How the data were processed

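RNA-seq of 3 suprarenal libraries, 1 per cohort, was examined. Per the labels, each library was a pool with equal amounts of total RNA and had between 35000000 and 43000000 reads. The submitters' processing notes name FastQC, HISAT2, Cufflinks, Cuffdiff, and mm9, with no versions. Each deposited list gives FPKM values of 1 pair of libraries, from a Cuffdiff run of its own, and the authors kept entries with an unadjusted p-value under 0.05. The deposited log2 ratio, test statistic, p-value, q-value, and significance columns were not used.

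Log2 ratios were computed from the FPKM values with no pseudocount. Lists were put on 1 scale by the median ratio of shared entries. After this, the AngII No AAA values from its 2 lists differed by a factor of 1.03 in all 102 shared entries. Whole reads were recovered from ratios, with a constant per list: 43.3% of entries in AngII AAA vs. AngII No AAA, 46.4% in AngII AAA vs. Saline, and 43.6% in AngII No AAA vs. Saline gave whole numbers within the rounding of 6 significant digits, searching up to 40 reads in the lower library. With the constant moved by 1 or 3%, at most 27, 41, and 27 entries did. Folds carry exact (Clopper-Pearson) 95% intervals.

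The genes named are the CC entries, the 2 listed genes with the highest FPKM of each gene list, and the 3 nearest genes of *Ccl2*, *Ccl6*, *Ccr1*, and *Ccr2* with at least 10 FPKM in the highest library. *Ly6g*, *Mpo*, *Elane*, *Stfa2l1*, *Lcn2*, *Csf3r*, *Mmp8*, *Mmp9*, *Trem1*, *Tubb1*, and *Pi16* were named after their values were seen. The gene lists were CC ligands, CC receptors, atypical receptors, receptor signalling, and 12 cell type lists. An entry that met the rule on symbols is not reported here and is in no count or median of the CC genes. The members, lists, and tests were chosen with earlier results of these data known. Alternatives were other pseudocounts, filters, folds, scales, and reference lists. Python 3.11.15, pandas 2.3.3, numpy 2.4.6, scipy 1.17.1, and matplotlib 3.10.9 were used.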

Additional observations from a re-analysis of the deposited data

Results flagged for a closer look

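*Ccl2* differed from Saline in opposite directions in the AngII libraries, with a log2 ratio of 3.85 for AngII AAA and -0.35 for AngII No AAA. The difference between these ratios was not tested, since each cohort was 1 library and both ratios share the Saline library. The counting interval of the AngII No AAA ratio includes no difference. Of 373 entries at least 4-fold higher in AngII AAA than in Saline, 26 (6.97%) were lower in AngII No AAA than in Saline.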

How the results depend on the processing

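No paired analysis was possible because each cohort was 1 library. Leaving out a replicate was likewise not possible. A pseudocount added to both values cannot change the direction of a ratio, so direction was not checked by it. Through the third library, *Ccl6*, *Ccl9*, and *Ccr1* kept their direction, the genes for which this could be run. The number listed higher could not change with at least 1 or 5 FPKM, since every CC gene was above 5 FPKM in its higher library. Nor could it change with atypical receptors, since none was listed. With a pseudocount of 1 FPKM, the median log2 ratio of the CC genes was 2.64 between AngII AAA and AngII No AAA, 3.91 between AngII AAA and Saline, and 2.24 between AngII No AAA and Saline. With 0.1 FPKM it was 4.09 and 2.59 in the comparisons with Saline, and through the third library (3 genes) 2.70, 5.12, and 2.51, against 2.65, 5.16, and 2.47 for the same genes. At least 8-fold higher were 3 CC genes against AngII No AAA and, for AngII No AAA vs. Saline, 1. The lower limit of the counting interval reached 4-fold for 4 and 1 genes in these comparisons, an alternative chosen after seeing the data, as was that for the order, where 5 genes had both steps clear of counting error. For the 8-fold counts and for these alternatives, no share of all entries is given, so they cannot be set against a background. With the neutrophil list in place of the macrophage list, the detailed members lay at -1.14, -0.04, and -0.20 in the 3 comparisons, against 0.83, 1.08, and 1.27 on the log2 scale. For AngII No AAA vs. Saline these are over *Ccl6* and *Ccr1*, the 2 of the 4 that were listed; across lists, *Ccl2* (-0.35) and *Ccr2* (1.33) lay below the macrophage median of 1.38. The neutrophil list had 2 entries there. Depth limits the low values most: *Ccl2*, *Ccl3*, *Ccl5*, *Ccl7*, *Ccl8*, and *Ccr1* had smallest read numbers of at most 10 in their lowest library, and the true numbers may be a multiple of these.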

Other observations

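The reads recovered per FPKM and kilobase of transcript (GENCODE M21 lengths) were compared between genes, since multiplied by 1000000 they give the number of reads that the FPKM values were scaled to. For *Ccl2*, *Ccl5*, *Ccl6*, *Ccl7*, *Ccl9*, and *Ccr1*, they were between 3.40 and 3.44 in the AngII AAA library, between 2.32 and 2.34 in the AngII No AAA library, and between 2.27 and 2.29 in the Saline library. For *Ccl3* and *Ccl8* they were 1.77 and 1.72 in the AngII AAA library, so that the true read numbers of these genes may be a multiple of the smallest. For *Ccr2* they were 2.15, 1.46, and 1.43 in AngII AAA, AngII No AAA, and Saline, which no whole multiple brings to the values of the other genes. After that multiplication, these values are below the 35000000 to 43000000 reads per library of the labels, and the difference was not examined.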
